A study of Caenorhabditis elegans with 16 samples.

Results

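The insulin-like peptide genes of *Caenorhabditis elegans* were taken as *daf-28* and every gene whose symbol is *ins-* followed by a number. Among the 46726 genes listed in the count tables, 39 genes met this definition. RNA was measured in young (L1) worms of 2 genotypes in 4 feeding states, with 2 samples in each of 8 groups. Wild-type worms were compared with *hlh-30(lf)* worms, which carry the deletion allele *tm1978*, lack 2 exons of the gene and were outcrossed to the wild-type strain N2. Fed worms were collected 18 h after eggs were placed on dishes seeded with bacteria. Starved worms hatched in M9, a buffered salt solution without nutrients, and were kept there for 33 h. The last 2 states were starved worms transferred to CeMM, a chemically defined liquid medium, for 3 h or 15 h. Each sample pooled a large number of worms. Per the study's methods, replicates were biological, and each was run at its own time together with its controls. The CeMM groups had no controls that were starved for the added time, and fed worms differed from starved worms in age and culture as well as in food, so these cannot be told apart.

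Insulin-like peptides are secreted, chiefly by neurons and the intestine, and act on a single insulin receptor, DAF-2. An activated DAF-2 signals through a PI3-kinase (AGE-1) and the kinases PDK-1 and AKT to keep the FOXO transcription factor DAF-16 out of the nucleus. Peptides that activate DAF-2, among them DAF-28, INS-4 and INS-6, promote growth and oppose arrest at the L1 or dauer stage, whereas others, such as INS-1, INS-17 and INS-18, oppose the receptor. HLH-30 is the worm counterpart of mammalian TFEB, a transcription factor known for its part in autophagy and in the response to starvation.

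The libraries held between 29205691 and 40955529 counts in genes, and replicates had Spearman correlations of at least 0.991 across genes. In the fed state *hlh-30* itself had 643 and 690 CPM (counts scaled to library size and TMM factor) in wild-type worms and 433 and 381 CPM in *hlh-30(lf)* worms. It was also lower in *hlh-30(lf)* worms after CeMM for 3 h (470 and 488 against 680 and 744 CPM) and 15 h (385 and 370 against 691 and 528 CPM). In the starved state, however, the libraries labelled *hlh-30(lf)* held 747 and 716 CPM and the wild-type libraries 662 and 619 CPM. Counts per gene do not resolve the deleted exons, so this measurement does not check the labels, and the starved samples are called below by their labels. Summed CPM of 10 neuronal markers lay between 1579 and 1811 in all 16 libraries. That of 7 intestinal markers ranged from 3700 to 4016 in fed worms of both genotypes, from 2344 to 2737 in starved wild-type worms (3 of the 7 genes called higher and 4 lower than in fed worms) and from 797 to 844 in starved libraries with the *hlh-30(lf)* label. It ranged from 1674 to 2434 in wild-type and from 1179 to 1908 in *hlh-30(lf)* worms after CeMM, although 4 of the 7 were called higher and 2 lower in wild-type worms at 15 h than in starved ones (median log2 fold change 0.54). The 5 epidermal markers summed to 439 to 445 CPM in fed and 154 to 165 CPM in starved wild-type worms, against 361 to 362 CPM in starved libraries with the *hlh-30(lf)* label. Of these 5, 1 was called higher and 3 lower in starved than in fed wild-type worms (log2 fold changes -6.55 to 0.86). Under the *hlh-30(lf)* label 2 were higher and 2 lower (-6.75 to 0.81). Single neuronal markers also went both ways. Starved against fed, 1 of the 10 was higher and 3 lower in wild-type worms, and 1 higher and 5 lower under the *hlh-30(lf)* label. Between the starved libraries 4 were higher and 2 lower in those labelled *hlh-30(lf)* (-0.65 to 0.73). Markers of oocytes and early embryos (8 genes) summed to between 83.3 and 93.8 CPM in starved wild-type worms and between 15.7 and 57.4 CPM elsewhere. Yolk protein genes (6 genes) summed to 64 CPM in replicate 1 of starved wild-type worms, 63.8 CPM in replicate 1 of wild-type worms after CeMM for 3 h, 10.1 CPM in replicate 1 after 15 h, and 0.857 to 3.68 CPM in the other libraries, where *vit-3*, *vit-4* and *vit-5* were at 0 in some. Body wall muscle markers (5 genes) summed to 25007 to 25267 CPM in starved wild-type worms and 9572 to 17930 CPM elsewhere. Of these 5, 2 were called higher and none lower in starved than in fed wild-type worms (-0.30 to 0.95, median 0.19). Under the *hlh-30(lf)* label none was higher and 2 were lower (-0.79 to 0.40), and the starved libraries lay apart (10413 and 15660 CPM). The part of these markers in the results below was not tested. In RNA from whole worms, fewer cells of a type and less RNA per cell cannot be told apart.

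All 39 genes had at least 1 count and entered the test. With a mean over all samples of at least 50 counts, 18 were well counted: *daf-28*, *ins-1*, *ins-3*, *ins-4*, *ins-5*, *ins-6*, *ins-10*, *ins-14*, *ins-17*, *ins-18*, *ins-22*, *ins-24*, *ins-26*, *ins-27*, *ins-28*, *ins-29*, *ins-30* and *ins-35*. A further 8 (*ins-11*, *ins-12*, *ins-16*, *ins-20*, *ins-21*, *ins-25*, *ins-33* and *ins-34*) had means of 11.5 to 38.1 counts. The remaining 13 (*ins-2*, *ins-7*, *ins-8*, *ins-9*, *ins-13*, *ins-15*, *ins-19*, *ins-23*, *ins-31*, *ins-32*, *ins-36*, *ins-37* and *ins-39*) had means of 0.0625 to 8.19 counts, and *ins-8* had a single count in a single library. A count was found in every library for 27 members. RefSeq lists *ins-38* as a pseudogene (chromosome II, 5530677 to 5530930), and it was not counted as a member: the count tables list 1 feature overlapping this place, to which the reference tables used here give no symbol. Exonic bases were shared with another gene by 3 members: *ins-7* (50 bases, with *ZK1251.14* on the opposite strand), *ins-10* (7 bases, with *vps-39* on the opposite strand) and *ins-13* (45 bases, with *acdh-2* on the same strand). The strand setting of the counting is not given in the sources used here, so reads in those bases cannot be assigned to one gene.

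Together the members made up 0.0207% to 0.0553% of all counts, from 211 CPM in fed *hlh-30(lf)* replicate 1 to 692 CPM in wild-type replicate 2 after CeMM for 15 h. Per kilobase of transcript, as the authors' RPKM, *daf-28* stood highest among the members in 7 of the 8 groups. In fed wild-type worms it had 142 and 134 RPKM, followed by *ins-30* with 58.4 and 55.2 RPKM and *ins-27* with 52.8 and 47.5 RPKM. The exception was the starved wild type, in which *ins-17* led with 162 and 156 RPKM, *ins-30* followed with 83.2 and 73.6 RPKM, and *daf-28* was not among the top 5. The level of *daf-28* rose to 367 and 398 RPKM in *hlh-30(lf)* worms after CeMM for 15 h, where *ins-30* came next with 147 and 146 RPKM. The heat map of the well counted members gives the level in each library.

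**Figure D1:**
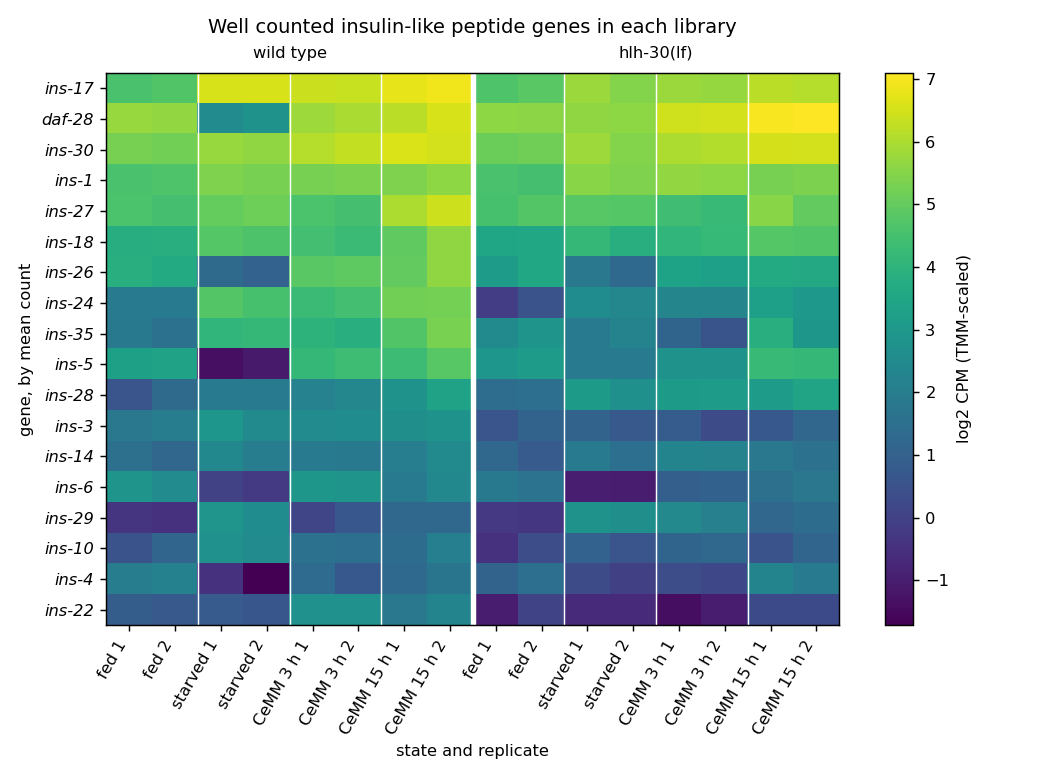
Heat map of the 18 well counted insulin-like peptide genes (rows, by mean count) in the 16 libraries (columns, by genotype, state and replicate), coloured by log2 CPM after TMM scaling. Within its row, *daf-28* is darker in the starved wild-type columns (5.87 and 6.94 CPM) than in the starved columns labelled *hlh-30(lf)* (48.4 and 49.5 CPM). The same holds for *ins-5* (0.397 and 0.472 CPM, against 3.66 and 3.83 CPM). *ins-24* is instead darker in each *hlh-30(lf)* column than in the wild-type columns of the same state.

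The first comparison asked how the peptide genes differed between starved and fed wild-type worms. Calls were made with edgeR's quasi-likelihood test with p-values adjusted by Benjamini and Hochberg's method over all 30177 genes tested and a threshold of 0.05. Of the peptides assigned as activating, *daf-28*, *ins-4* and *ins-6* were low in starved worms, *ins-3* was high, and *ins-7*, with few counts, was not called. *ins-5* and *ins-26* were also low, and a larger group that includes the inhibiting peptides was high. Of the 39 members, 23 were called, 14 higher and 9 lower, where 40.2% of all genes tested were called (20.1% higher and 20.1% lower), and the median log2 fold change of the members was 0.46. In this and the other 12 comparisons the median of all genes tested was 0. Here and below, shares of all genes are over the 30177 tested, which include genes with few counts. With edgeR's filterByExpr, which drops such genes, 12190 of 17441 genes and 23 of 33 members were called in starved against fed wild-type worms. The shares of members and of all genes were then close. *daf-28*, a peptide of sensory neurons whose mutation drives dauer formation, had 52.8 and 50.8 CPM in fed and 5.87 and 6.94 CPM in starved wild-type worms. It fell by 3.02 ± 0.12 (SE) on the log2 scale (edgeR adjusted p = 9.9e-18), and the groups lay far apart. *ins-5* fell by 4.52 ± 0.21, from 9.77 and 10.3 CPM to 0.397 and 0.472 CPM. *ins-4*, which acts redundantly with *daf-28* to promote development out of L1 arrest, had 4.05 and 4.46 CPM in fed and 0.737 and 0.305 CPM in starved worms, a log2 fold change of -3.03 ± 0.31. *ins-6*, which opposes dauer formation and promotes dauer exit, had 7.21 and 5.79 CPM in fed and 1.02 and 0.86 CPM in starved worms, a log2 fold change of -2.79 ± 0.21. *ins-26* had 14.4 and 12.8 CPM in fed and 2.49 and 2.08 CPM in starved worms, a log2 fold change of -2.57 ± 0.26. For each of these 5 genes, both starved libraries were below both fed libraries, and the call held without any 1 of the 16 libraries.

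The 12 well counted members that rose in starved wild-type worms included all 3 peptides assigned as inhibitors of the receptor. *ins-17*, which promotes dauer formation in genetic tests, had 23.8 and 26.2 CPM in fed and 95.2 and 95.1 CPM in starved worms and rose by 1.93 ± 0.10 on the log2 scale (edgeR adjusted p = 3.8e-15). *ins-18* rose by 0.90 ± 0.19, from 13.8 and 14.4 CPM to 27.6 and 24.9 CPM. *ins-1*, known also for its part in salt chemotaxis learning, rose by 0.72 ± 0.09, from 23.7 and 25.4 CPM to 41.7 and 38.9 CPM. The changes were larger in several peptides with no role assigned here. *ins-29* went from 0.791 and 0.728 CPM in fed to 7.34 and 5.91 CPM in starved worms, a log2 fold change of 3.12 ± 0.21. *ins-24* went from 3.73 and 3.67 CPM to 26.5 and 23.2 CPM, a log2 fold change of 2.75 ± 0.14. *ins-35* went from 3.61 and 3.01 CPM to 17.2 and 18 CPM, a log2 fold change of 2.41 ± 0.35. *ins-10* rose by 1.76 ± 0.26, and *ins-28* (0.93 ± 0.24), *ins-14* (0.83 ± 0.20), *ins-27* (0.53 ± 0.17) and *ins-30* (0.43 ± 0.10) rose by less than 1. So did *ins-3* (0.80 ± 0.18), which, unlike these, is assigned as activating the receptor. *ins-22*, often used as a tagged cargo of dense-core vesicles, had 1.83 and 1.68 CPM in fed and 1.76 and 1.58 CPM in starved worms and was not called. The call of *ins-28* was lost without fed wild-type replicate 1 (0.59). That of *ins-27* was lost without fed wild-type replicate 1 (0.56) or 2 (0.43), starved wild-type replicate 2 (0.45), or starved replicate 1 (0.50) or 2 (0.53) labelled *hlh-30(lf)*. Among the members with fewer counts, *ins-12* lost its call without starved wild-type replicate 1 (-1.84), and *ins-37* without fed wild-type replicate 1 (1.41) or starved wild-type replicate 2 (1.59).

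**Figure D2:**
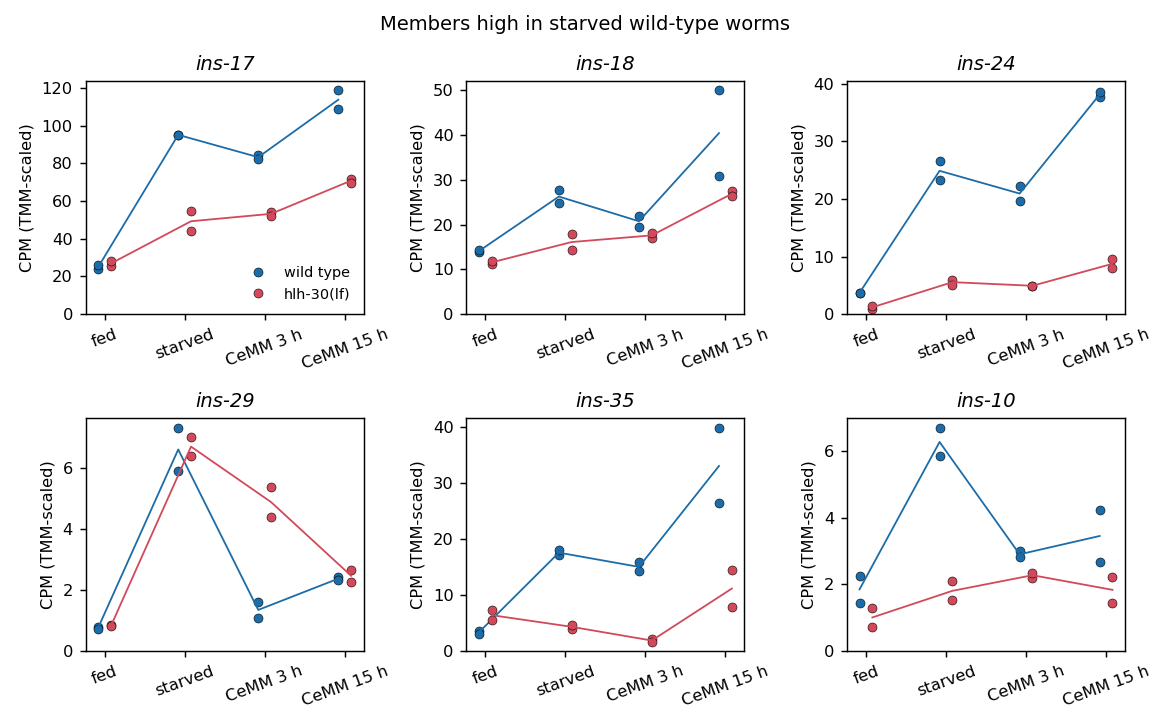
TMM-scaled CPM of *ins-17*, *ins-18*, *ins-24*, *ins-29*, *ins-35* and *ins-10* by state, with 1 point per library and lines joining the group means (blue, wild type; red, *hlh-30(lf)*). Each gene is higher in both starved than in both fed wild-type libraries; for *ins-29* the starved libraries of both genotypes lie between 5.91 and 7.34 CPM, whereas *ins-35* stays at 3.89 and 4.71 CPM in starved libraries with the *hlh-30(lf)* label.

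The transfer of starved wild-type worms to CeMM was examined at 3 h and 15 h against the same starved libraries, so the 2 comparisons share their control. At 3 h, 15 members were called, 9 higher and 6 lower (30.1% of all genes, 15.0% and 15.1%), with a median of -0.02. At 15 h, 21 were called, 16 higher and 5 lower (29.2% of all genes, 15.4% and 13.8%), with a median of 0.17. With a replicate block, 18 in place of 21 were called at 15 h, 13 of them higher, the lost calls being *ins-9*, *ins-17* and *ins-35* (1.94, 0.26 and 0.91). The 5 well counted genes that were low in starved worms were all higher at both times. They were picked by low values in these same starved libraries, so the fall and the return are not separate evidence. *daf-28* had 55.5 and 62.6 CPM at 3 h and 71.9 and 93.7 CPM at 15 h, log2 fold changes over the starved state of 3.20 ± 0.12 and 3.69 ± 0.12. *ins-5* had 17.7 and 20.5 CPM at 3 h and 20.3 and 28 CPM at 15 h, log2 fold changes of 5.45 ± 0.20 and 5.78 ± 0.20, and these values lay above the fed values of 9.77 and 10.3 CPM. *ins-26* reached 28.6 and 30.2 CPM at 3 h and 31.6 and 50.1 CPM at 15 h, log2 fold changes of 3.68 ± 0.26 and 4.16 ± 0.26. The range of *ins-6* at 3 h overlapped that of fed worms, and *ins-4* lay below its fed level at both times. *ins-6* had 7.79 and 7.16 CPM at 3 h and 3.74 and 5.29 CPM at 15 h, with log2 fold changes of 2.99 ± 0.20 and 2.26 ± 0.21. *ins-4* had 2.58 and 1.62 CPM at 3 h and 2.46 and 3.24 CPM at 15 h, with log2 fold changes of 2.01 ± 0.34 and 2.45 ± 0.33. *ins-22* rose from the starved state to 6.76 and 6.62 CPM at 3 h (2.0 ± 0.19) and stood at 3.48 and 4.80 CPM at 15 h (1.31 ± 0.21).

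**Figure D3:**
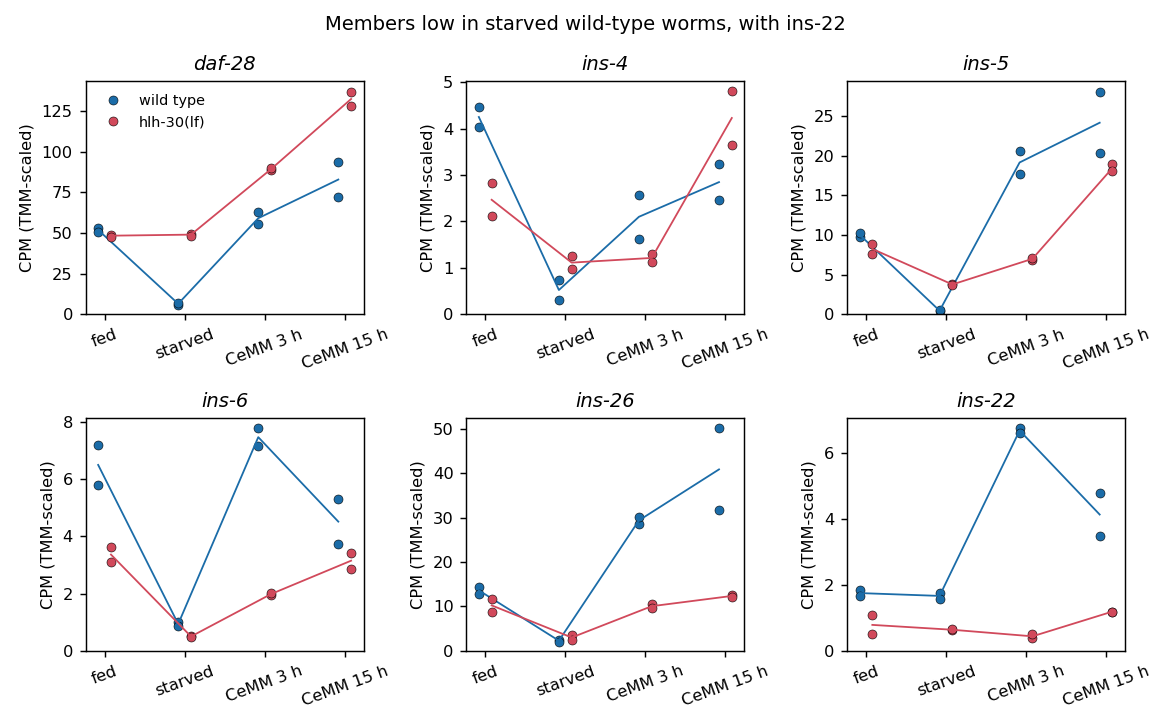
TMM-scaled CPM of *daf-28*, *ins-4*, *ins-5*, *ins-6*, *ins-26* and *ins-22* by state, with 1 point per library and lines joining the group means (blue, wild type; red, *hlh-30(lf)*). In wild-type worms the first 5 are low in the starved state and higher after CeMM, whereas *daf-28* stays at 49.5 and 48.4 CPM in starved libraries with the *hlh-30(lf)* label and *ins-22* stays below 1.2 CPM in every *hlh-30(lf)* library.

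The members that had risen in starved wild-type worms divided into those that came down in CeMM and those that stayed up. *ins-29* fell to 1.09 and 1.60 CPM at 3 h (-2.30 ± 0.18) and 2.43 and 2.32 CPM at 15 h (-1.48 ± 0.17). *ins-10* fell from 6.72 and 5.86 CPM to 2.99 and 2.82 CPM at 3 h (-1.11 ± 0.23) and was at 2.66 and 4.25 CPM at 15 h (-0.87 ± 0.23). *ins-24* instead stayed at 19.7 and 22.2 CPM at 3 h and reached 37.7 and 38.6 CPM at 15 h (0.62 ± 0.12), and *ins-30* rose again at each time (0.52 ± 0.10 and 0.85 ± 0.10). *ins-27* reached 65.2 and 85.6 CPM at 15 h (1.15 ± 0.16) and *ins-28* 7.02 and 10.3 CPM (1.17 ± 0.20). By these calls 7 members (17.9%, against 10.7% of all genes) fell with starvation in wild-type worms and were higher again at 15 h, 4 (10.3%, against 9.95%) were higher and then lower, and 7 (17.9%, against 1.48%) were higher and then higher again. These last were *ins-17*, *ins-18*, *ins-24*, *ins-27*, *ins-28*, *ins-30* and *ins-35*. Among them only *ins-24* and *ins-30* kept both calls without any single library. The 1.48% of all genes takes the calls with all libraries. The shares of all genes given for these patterns include genes with few counts and were not computed without them. Wild-type replicate 2 at 15 h had the highest share of ribosomal RNA counts (12.9%, median of all libraries 2.14%) and a TMM factor of 0.799, and several 15 h calls were lost without it: *ins-18* (0.62 with it, 0.23 without), *ins-35* (0.91, 0.59), *ins-17* (0.26, 0.19), *ins-33* (2.25, 1.04) and *ins-9* (1.94, 0.61). The call of *ins-9*, 1 of the 7 that fell and were higher again, was lost without any 1 of 13 of the 16 libraries (0.61 to 1.95). *ins-35* and *ins-17* lost the call also without either starved wild-type replicate (0.88 and 0.94 for *ins-35*, 0.26 for *ins-17*), and *ins-18* without the first (0.70) or second (0.55) of them. The same held for *ins-33* without the second (1.83). Of the 4 that were higher and then lower (*ins-10*, *ins-25*, *ins-29* and *ins-37*), *ins-10* (-0.56) and *ins-37* (-1.80) lost the 15 h call without wild-type replicate 1 at 15 h, which left 3 of the 5 members called lower at that time. *ins-10* lost it also without starved wild-type replicate 1 (-0.76) and *ins-37* without starved wild-type replicate 2 (-1.88). At 3 h, *ins-27* was called lower (-0.53 ± 0.16) but lost the call without any of the 4 wild-type libraries compared (-0.61 to -0.45).

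Starved and fed libraries labelled *hlh-30(lf)* were then compared in the same way. The fall of *daf-28* and the rise of *ins-35* seen in wild-type worms were absent from the called changes, whereas *ins-6*, *ins-26*, *ins-24* and *ins-29* changed as called in wild-type worms. In all, 16 members were called, 10 higher and 6 lower (37.6% of all genes, 18.4% and 19.1%), with a median of 0.53. *daf-28* had 48.8 and 47.8 CPM in the fed and 49.5 and 48.4 CPM in the starved libraries, a log2 difference of 0.02 ± 0.10. *ins-5* fell from 7.56 and 8.89 CPM to 3.83 and 3.66 CPM (-1.13 ± 0.15) and *ins-4* from 2.11 and 2.82 CPM to 1.26 and 0.967 CPM (-1.14 ± 0.29). *ins-6* fell from 3.63 and 3.10 CPM to 0.509 and 0.497 CPM (-2.75 ± 0.25), and *ins-26* from 8.73 and 11.7 CPM to 3.53 and 2.48 CPM (-1.77 ± 0.26). *ins-35* had 5.52 and 7.25 CPM in fed and 3.89 and 4.71 CPM in starved libraries (-0.55 ± 0.35, not called). *ins-17* rose to 54.7 and 43.9 CPM from 25.4 and 28.4 CPM (0.87 ± 0.10), *ins-24* rose by 2.26 ± 0.18 and *ins-29* by 3.02 ± 0.21. *ins-4* lost its call without starved replicate 2 (-0.95), and *ins-14* (0.65 ± 0.21) without fed replicate 2 or starved replicate 1 labelled *hlh-30(lf)* (0.45 in each case).

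The difference between the genotypes in the response to starvation was tested directly with an interaction term. It was called for 10 members, 6 above and 4 below 0 (27.7% of all genes, 14.1% and 13.6%), a share of the members (25.6%) near that of all genes. *daf-28* differed by 3.03 ± 0.16 on the log2 scale (edgeR adjusted p = 1.2e-14), *ins-5* by 3.39 ± 0.28 and *ins-4* by 1.89 ± 0.45, each with a smaller fall or no fall in the libraries labelled *hlh-30(lf)*. *ins-35* (-2.96 ± 0.49) and *ins-17* (-1.05 ± 0.14) rose less there or did not rise. These 5 calls held without any single library. For *ins-6* the interaction was 0.04 ± 0.41, for *ins-29* -0.10 ± 0.34 and for *ins-24* -0.49 ± 0.24, none of them called. The remaining 5 calls were in low or trace members (*ins-9*, *ins-12*, *ins-16*, *ins-20* and *ins-25*), of which *ins-25* was lost without fed *hlh-30(lf)* replicate 1 (-1.49 in place of -2.30) and *ins-16* without fed wild-type replicate 1 (2.40 in place of 3.68).

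In CeMM the libraries labelled *hlh-30(lf)* were again compared with the starved ones of the same label. At 3 h, 10 members were called, 7 higher and 3 lower (16.4% of all genes, 7.71% and 8.71%), with a median of 0.11, and at 15 h 18 were called, 16 higher and 2 lower (30.8% of all genes, 15.6% and 15.1%), with a median of 0.26. *daf-28* rose to 88.9 and 89.7 CPM at 3 h (0.87 ± 0.10) and 128 and 137 CPM at 15 h (1.44 ± 0.10). *ins-5* reached 6.87 and 7.10 CPM at 3 h (0.90 ± 0.15) and 18.9 and 18 CPM at 15 h (2.30 ± 0.15). *ins-6* rose to 1.95 and 2.02 CPM (1.98 ± 0.27) and then 2.88 and 3.43 CPM (2.65 ± 0.25). *ins-26* rose to 10.5 and 9.59 CPM at 3 h (1.75 ± 0.26) and 12.7 and 12 CPM at 15 h (2.05 ± 0.25), well below the wild-type values at both times. *ins-4* was not called at 3 h (1.29 and 1.14 CPM, 0.14 ± 0.32) and rose by 15 h (4.81 and 3.66 CPM, 1.93 ± 0.27). *ins-29* remained at 5.38 and 4.41 CPM at 3 h (-0.45 ± 0.16) and had come down to 2.27 and 2.67 CPM at 15 h (-1.44 ± 0.17). Of the 10 calls at 3 h, 5 held without any single library (*daf-28*, *ins-5*, *ins-6*, *ins-12* and *ins-26*), and without *hlh-30(lf)* replicate 1 at 3 h the count fell to 6. *ins-29* at 3 h lost its call without either *hlh-30(lf)* library of that time (-0.57 and -0.29) or either starved one (-0.38 and -0.52), among others, and *ins-30* (0.40 ± 0.10) lost it without starved replicate 2 (0.24). *ins-14* (0.55 ± 0.18), *ins-31* and *ins-33* also lost the 3 h call, without starved replicate 2 (0.37, 1.58 and -2.03) or *hlh-30(lf)* replicate 1 at 3 h (0.56, 1.53 and -3.28), and *ins-14* (0.59) and *ins-33* (-2.38) without replicate 2 at 3 h. At 15 h, *ins-35* (1.36 ± 0.34) lost its call without starved replicate 1 (1.23), *ins-18* (0.74 ± 0.19) without starved replicate 2 (0.58), and *ins-27* (0.49 ± 0.16) without *hlh-30(lf)* replicate 1 of that time (0.23) or either starved library (0.49 and 0.48). *ins-16* (0.71 ± 0.24) and *ins-22* (0.89 ± 0.30) lost theirs without any of the 4 libraries compared (0.68 to 0.80, and 0.87 to 0.93).

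The interaction of genotype with CeMM was called for 11 members at 3 h, 5 above and 6 below 0 (21.8% of all genes, 10.3% and 11.5%), and for 8 at 15 h, 3 above and 5 below 0 (22.4% of all genes, 10.4% and 12.0%). These terms use the same starved libraries as the interaction with starvation, so the values are given side by side and not as separate evidence. At 3 h it was -4.55 ± 0.27 for *ins-5*, -2.54 ± 0.42 for *ins-22*, -2.34 ± 0.16 for *daf-28*, -1.93 ± 0.37 for *ins-26*, -1.88 ± 0.48 for *ins-4* and 1.84 ± 0.24 for *ins-29*, and these 6 calls held without any single library. At 15 h it was -3.48 ± 0.27 for *ins-5*, -2.26 ± 0.15 for *daf-28* and -2.11 ± 0.37 for *ins-26*, and these 3 calls held likewise. *ins-4* (-0.52 ± 0.45), *ins-22* (-0.41 ± 0.38) and *ins-29* (0.04 ± 0.25) were not called at 15 h. Without starved wild-type replicate 1 the count at 15 h fell from 8 to 4, the calls lost being *ins-7*, *ins-11*, *ins-25* and *ins-28* (6.94, 1.81, 1.05 and -0.81). The plot of the responses sets the 2 genotypes against each other.

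**Figure D4:**
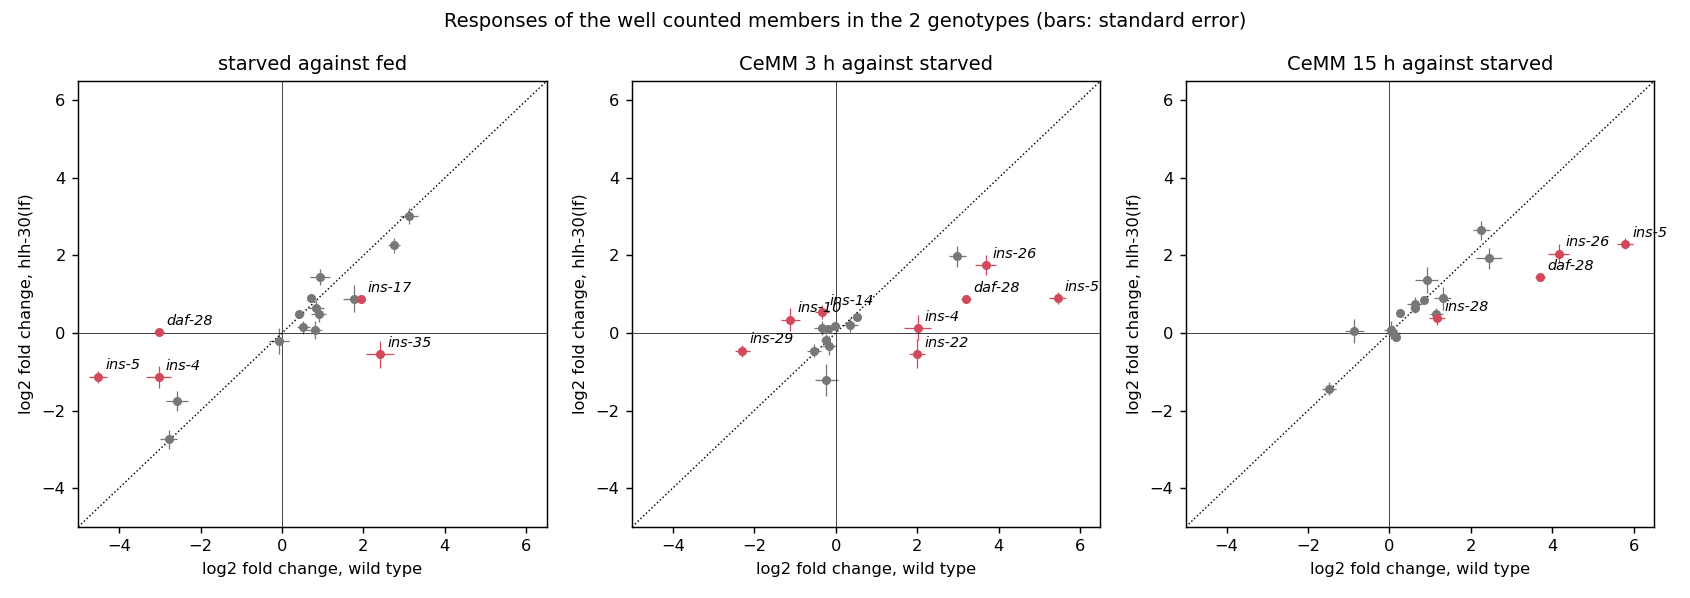
Log2 fold changes (± SE) of the 18 well counted members in wild-type worms (x axis) and *hlh-30(lf)* worms (y axis), for starved against fed, CeMM 3 h against starved and CeMM 15 h against starved. Red, named genes were called for the interaction of genotype and state, and the dotted line marks equal change; *daf-28* lies at -3.02 and 0.02 in the first panel, and *ins-5* at 5.45 and 0.90 in the second.

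The genotypes were next compared within each state. In all, 4 peptides were called lower in *hlh-30(lf)* in each of the 4 states, *ins-3*, *ins-6*, *ins-22* and *ins-24*, and none was called higher in all 4. These were 10.3% of the members, against 0.842% of all genes for lower and 0.865% for higher. Those shares of all genes include genes with few counts and were not computed without them. In the fed state these peptides were the 4 members called, of 39 (4.42% of all genes, 2.26% higher and 2.16% lower), with a median of -0.51. *ins-24* had 3.73 and 3.67 CPM in fed wild-type and 0.920 and 1.46 CPM in fed *hlh-30(lf)* worms, a log2 difference of -1.68 ± 0.19 (edgeR adjusted p = 8.4e-07). It was lower by a like amount in the starved (-2.17 ± 0.13), 3 h (-2.09 ± 0.13) and 15 h (-2.13 ± 0.13) states, where wild-type libraries held 19.7 to 38.6 CPM and *hlh-30(lf)* libraries 4.92 to 9.49 CPM. All 4 of its calls held without any single library. The 4 genes were picked by their calls in all 4 states, so their like direction does not check the labels of the starved libraries. *ins-3* had 3.51 to 7.57 CPM in the 8 wild-type and 1.22 to 2.31 CPM in the 8 *hlh-30(lf)* libraries, with log2 differences of -1.08 ± 0.22, -1.81 ± 0.20, -1.97 ± 0.20 and -1.75 ± 0.20 from the fed to the 15 h state. *ins-22* had 1.58 to 6.76 CPM in wild-type and 0.384 to 1.19 CPM in *hlh-30(lf)* libraries, with differences of -1.23 ± 0.28, -1.37 ± 0.28, -3.91 ± 0.25 and -1.79 ± 0.22. By these ranges the wild-type and *hlh-30(lf)* libraries of these 2 genes did not overlap across the 16 libraries. Both genes were picked by their calls, and the share of all genes with such a separation was not counted. *ins-6* was lower by 0.94 ± 0.17, 0.90 ± 0.31, 1.91 ± 0.18 and 0.51 ± 0.18 in the same order. The fed calls of *ins-3* and *ins-22* were lost without fed *hlh-30(lf)* replicate 1 (-0.83 and -0.69), that of *ins-3* also without fed wild-type replicate 2 (-0.97) and that of *ins-22* without fed wild-type replicate 1 (-1.16). For *ins-6*, the starved call was lost without starved wild-type replicate 1 (-0.77) or either starved library labelled *hlh-30(lf)* (-0.89 and -0.88), and the 15 h call without *hlh-30(lf)* replicate 1 (-0.38) or wild-type replicate 2 (-0.24) of that state.

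In the other states more members differed by genotype. Between the starved libraries 19 were called, 8 higher and 11 lower in those labelled *hlh-30(lf)* (38.1% of all genes, 18.8% and 19.3%), with a median of -0.29. After CeMM 23 were called at 3 h, 10 higher and 13 lower (36.2% of all genes, 17.7% and 18.6%), with a median of -0.24, and 18 at 15 h, 4 higher and 14 lower (24.0% of all genes, 11.7% and 12.4%), with a median of -0.39. *daf-28* was called higher in 3 states, by 2.93 ± 0.12 in the starved, 0.60 ± 0.10 in the 3 h and 0.68 ± 0.10 in the 15 h state, and differed by -0.10 ± 0.10 in the fed state. The direction for *ins-5* depended on the state: it was higher in starved libraries with the *hlh-30(lf)* label (3.10 ± 0.24), lower at 3 h (-1.45 ± 0.13) and called lower by 0.39 ± 0.13 at 15 h, a call lost without wild-type replicate 2 (-0.14) or either *hlh-30(lf)* library (-0.40 and -0.35) of that time. *ins-4* was likewise called higher in the starved (1.08 ± 0.39) and lower in the 3 h state (-0.79 ± 0.28), but the first call was lost without starved wild-type replicate 2 (0.58) or either starved library labelled *hlh-30(lf)* (0.92 and 1.27), and the second without wild-type replicate 1 (-0.41) or either *hlh-30(lf)* library (-0.85 and -0.68) of that time.

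*ins-35* and *ins-17* were lower in *hlh-30(lf)* outside the fed state. *ins-35* had 15.8 and 14.2 CPM in wild-type and 2.20 and 1.5 CPM in *hlh-30(lf)* worms at 3 h (-3.02 ± 0.37), and its differences were -2.03 ± 0.33 in the starved and -1.58 ± 0.30 in the 15 h state. In fed worms it stood at 3.61 and 3.01 CPM in wild-type and 5.52 and 7.25 CPM in *hlh-30(lf)* worms (0.94 ± 0.37, not called). *ins-17* differed by -0.95 ± 0.10, -0.65 ± 0.10 and -0.68 ± 0.10 in the starved, 3 h and 15 h states. *ins-26* was lower at 3 h (-1.55 ± 0.22) and 15 h (-1.72 ± 0.21), with 9.59 to 12.7 CPM in *hlh-30(lf)* and 28.6 to 50.1 CPM in wild-type worms. *ins-10* was lower in starved libraries with the *hlh-30(lf)* label (2.10 and 1.52 against 6.72 and 5.86 CPM, -1.81 ± 0.25). *ins-28* was higher in starved libraries of that label (0.98 ± 0.20) and at 3 h (0.84 ± 0.19), and *ins-29* at 3 h (1.86 ± 0.19). *ins-30* was called in no state, with differences between -0.16 and -0.04 and standard errors of 0.10. *ins-1* was called at 3 h (0.32 ± 0.09), a call lost without wild-type replicate 1 of that time (0.29). The 15 h calls of *ins-10* (-0.89), *ins-14* (-0.59) and *ins-18* (-0.59) were lost without wild-type replicate 2 of that state (-0.52, -0.36 and -0.19), among others, and those of *ins-14* and *ins-18* in the starved state (-0.51 and -0.71) without starved wild-type replicate 1 (-0.30 and -0.63) or starved replicate 2 labelled *hlh-30(lf)* (-0.33 and -0.55).

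**Figure D5:**
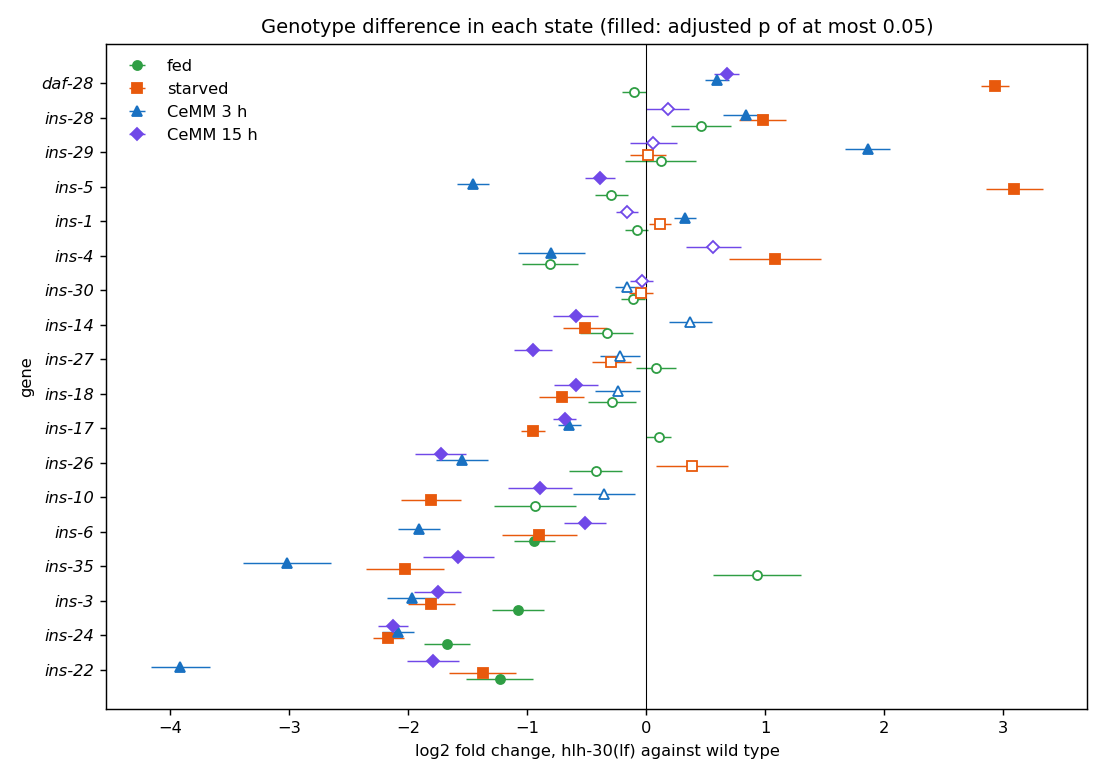
Log2 fold change (± SE) of *hlh-30(lf)* against wild-type worms for each well counted member (rows) in the fed, starved, CeMM 3 h and CeMM 15 h states, with filled symbols for an adjusted p of at most 0.05. *ins-22*, *ins-24*, *ins-3* and *ins-6* are filled and below 0 in every state, and *daf-28* is at 2.93 in the starved state and at -0.10 in the fed state.

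The low members were followed by their counts, since folds against a few counts are not stable. *ins-16* had 2 to 13 counts in each wild-type library and 3 and 5 counts in fed *hlh-30(lf)* libraries, but 40 and 48 counts in the starved, 40 and 52 in the 3 h and 69 and 74 in the 15 h libraries labelled *hlh-30(lf)*. It was called higher in all 3 of those states, without loss when a library was left out. *ins-12* had 188 and 128 counts in the starved and 48 and 43 counts in the 3 h libraries labelled *hlh-30(lf)*, and 2 to 18 counts in the other 12. *ins-11*, an intestinal peptide induced by harmful bacteria through HLH-30 and linked to avoidance of pathogens, had 84 and 95 counts in *hlh-30(lf)* worms after CeMM for 15 h and 0 to 24 counts in the other libraries. The call at 15 h (3.06 ± 0.40) held without any single library, whereas the call at 3 h was lost without wild-type replicate 2 (0.80) or *hlh-30(lf)* replicate 2 (1.39) of that time. *ins-20* showed the reverse, with 113 and 109 counts in fed wild-type and 102 and 68 counts in fed *hlh-30(lf)* libraries, 53 and 50 counts in starved wild-type libraries, and 2 and 1 counts in starved libraries with the *hlh-30(lf)* label. *ins-25* had 145 and 139 counts in starved wild-type libraries, 35 and 27 in starved libraries with the *hlh-30(lf)* label, and 3 to 10 in fed libraries of both genotypes. *ins-33* had 40 to 54 counts in the 4 fed libraries and 1 to 32 counts elsewhere. *ins-21* had 28 and 36 counts in wild-type worms at 3 h and 3 to 14 counts in the other libraries, and its rise over the starved state (1.17 ± 0.34) was lost without the second library of either state (0.95 and 1.0). *ins-34* was called in no comparison, and its replicates differed widely, with 51 and 6 counts in starved libraries with the *hlh-30(lf)* label and 28 and 4 counts in wild-type worms at 3 h.

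The trace members gave few reads in any state. *ins-39* had 13 to 26 counts in the 4 libraries after CeMM for 15 h, 0 to 2 counts in fed and 1 to 3 counts in starved libraries, and its 15 h calls held in both genotypes without any single library. *ins-7*, a peptide of the intestine and neurons that activates DAF-2 and is repressed by DAF-16, had 10 and 15 counts in *hlh-30(lf)* worms after CeMM for 15 h and 0 to 5 counts elsewhere, with 0 in both starved libraries labelled *hlh-30(lf)*. *ins-31* (20 and 13 counts) and *ins-19* (10 and 13 counts), which lie next to each other, both peaked in *hlh-30(lf)* worms at 3 h, where wild-type worms had 4 and 3, and 3 and 0 counts. *ins-37* had 12 and 19 counts in starved wild-type libraries and 0 to 9 in the others. *ins-9* had 13 and 14 counts in fed, 2 and 2 in starved and 3 and 3 counts in 3 h wild-type libraries, and 6 to 11 counts in every *hlh-30(lf)* library. *ins-23* had 0 to 11 and *ins-32* 0 to 12 counts in any library. Between the genotypes, calls of *ins-7*, *ins-9*, *ins-19* (in the starved state), *ins-23* and *ins-32* were each lost without 1 or more of the libraries compared, as were those of *ins-20* at 3 h and 15 h and of *ins-25* at 15 h (-1.10, and -0.80 without wild-type replicate 1 or -0.99 without *hlh-30(lf)* replicate 1). At this depth 3 counts correspond to 0.0730 to 0.105 CPM. None of *ins-2*, *ins-8*, *ins-13*, *ins-15* and *ins-36* was called in any of the 13 comparisons. Whether few counts or a lack of difference accounts for this was not tested.

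Many of the genes lie close together. A row of 7 is found within 25362 bases of chromosome I (WBcel235, 14012442 to 14037803), in the order *ins-28*, *ins-29*, *ins-25*, *ins-27*, *ins-24*, *ins-30* and *ins-26*, with 4 other genes among them. In starved against fed wild-type worms the log2 fold changes along this row were 0.93, 3.12, 4.49, 0.53, 2.75, 0.43 and -2.57, so 6 rose and *ins-26*, at its end, fell. Between the genotypes in the starved state *ins-24* differed by -2.17 and its neighbour *ins-30* by -0.04. Another 6 lie within 22796 bases of chromosome II (5988526 to 6011321): *ins-2*, *ins-3*, *ins-4*, *ins-5*, *ins-6* and *ins-20*. Of these, *ins-4*, *ins-5*, *ins-6* and *ins-20* fell and *ins-3* rose in starved wild-type worms, and *ins-2*, with 1 to 17 counts, was not called. *ins-21*, *ins-22* and *ins-23* lie within 4797 bases of chromosome III (10023804 to 10028600), and *ins-13*, *ins-12* and *ins-11* within 12504 bases of chromosome II (5544585 to 5557088). *ins-12* and *ins-11*, adjacent in this row, peaked in different states of *hlh-30(lf)* worms, at starvation and after CeMM for 15 h. *daf-28* lies on chromosome V (19815445 to 19816219), outside these rows.

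Genes that process or release the peptides, and genes that carry the signal, were measured beside them. Of 14 genes for processing and release, 13 were found, and in starved against fed wild-type worms 8 rose and 3 fell (20.1% and 20.1% of all genes), with a median log2 fold change of 0.67. *egl-3*, a proprotein convertase, rose by 1.69, *sbt-1*, its chaperone, by 1.62, and *egl-21*, the carboxypeptidase that trims the cut peptides, by 1.41, while *tomm-40* fell by 2.91. Between the starved libraries, 9 of the 13 were lower and 1 higher in those labelled *hlh-30(lf)* (19.3% and 18.8% of all genes), with a median of -0.61. Among the lower genes were *egl-3* (-0.78), *egl-21* (-0.61) and *unc-31* (-1.32), which is needed for release of dense-core vesicles. The replicates of *unc-31* lay apart in starved libraries with the *hlh-30(lf)* label (34.6 and 61.5 CPM, against 121 and 119 CPM in starved wild-type worms). None of the 13 was called between genotypes in the fed state (4.42% of all genes). In CeMM against starved, 2 rose and 6 fell in wild-type worms at 3 h (15.0% and 15.1% of all genes), and 4 rose and 2 fell at 15 h (15.4% and 13.8%). In *hlh-30(lf)* worms 3 rose and none fell at 3 h (7.71% and 8.71%), and 9 rose and 1 fell at 15 h (15.6% and 15.1%). Of 10 genes from the receptor to DAF-16, 8 rose and none fell in starved wild-type worms (20.1% and 20.1% of all genes, median 0.43), among them *daf-2* (1.68), *akt-1* (1.5) and *daf-16* (0.43). In starved libraries with the *hlh-30(lf)* label 6 rose and 1 fell (18.4% and 19.1%, median 0.63). At 3 h of CeMM none rose in either genotype (15.0% of all genes in wild-type and 7.71% in *hlh-30(lf)* worms). At that time 6 fell in wild-type worms (15.1% of all genes, median -0.25) and 5 in *hlh-30(lf)* worms (8.71%, median -0.35). At 15 h, 1 rose and 2 fell in wild-type worms (15.4% and 13.8%, median -0.20). In *hlh-30(lf)* worms 1 rose and 5 fell at 15 h (15.6% and 15.1%, median -0.20). Between the starved libraries 5 of the 10 were higher and 3 lower (18.8% and 19.3%, median 0.15). Among them *daf-16* (0.66) and *aap-1* (1.11), the PI3-kinase adaptor subunit, were higher and *daf-2* (-0.80) and *ist-1* (-1.83), an insulin receptor substrate homologue, lower in those labelled *hlh-30(lf)*. *daf-2* had 207 and 376 CPM in the latter libraries and 501 and 515 CPM in starved wild-type worms.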

How the data were processed

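RNA of 16 samples was sequenced on an Illumina HiSeq with single-end reads of 50 bases. Per the study's methods and the submitters' processing notes, the authors aligned the reads with STAR 2.0.4b to Ensembl release 76 (WBcel235), counted reads per gene with featureCounts (1.45 in the submitters' processing notes), and deposited raw counts and RPKM per gene. Counts were tested here with edgeR 4.0.16 (R 4.3.3): TMM scaling, quasi-likelihood fit with 1 coefficient per group over all 16 samples, 30177 genes with at least 1 count, Benjamini-Hochberg adjustment, and calls at an adjusted p of at most 0.05. Each SE was obtained from the fold change and the F statistic of its test. The deposited RPKM values were used for levels between genes, and the CPM values the authors deposited were replaced by CPM recomputed from the counts with TMM factors. All members are accounted for, with values per sample for those well counted (mean of at least 50) and counts for the low (10 to 50) and trace members. The members and gene lists were chosen with earlier results of these data known. Alternatives were edgeR's earlier fit, DESeq2 1.42.0, limma-voom (limma 3.58.1), RLE size factors, filterByExpr, a replicate block, the compared groups alone and leaving out each sample. Intervals of counts cover counting error only. Promoter and protein sequences were not analysed here. The statistics were tested on simulated data.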

Additional observations from a re-analysis of the deposited data

Results flagged for a closer look

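The interaction of genotype with state, which tests whether the response of *hlh-30(lf)* worms differed from that of wild-type worms, was called by edgeR for 29 results over 3 contrasts, given here as the *hlh-30(lf)* response minus the wild-type response on the log2 scale. The 3 contrasts share the starved libraries.

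For starvation the values were 6.62 for *ins-12*, 3.68 for *ins-16*, 3.39 for *ins-5*, 3.03 for *daf-28*, 3.03 for *ins-9*, 1.89 for *ins-4*, -1.05 for *ins-17*, -2.30 for *ins-25*, -2.96 for *ins-35* and -4.48 for *ins-20*. For CeMM at 3 h they were 3.13 for *ins-20*, 1.84 for *ins-29*, 1.61 for *ins-25*, 1.46 for *ins-10*, 0.88 for *ins-14*, -1.77 for *ins-21*, -1.88 for *ins-4*, -1.93 for *ins-26*, -2.34 for *daf-28*, -2.54 for *ins-22* and -4.55 for *ins-5*. For CeMM at 15 h they were 7.51 for *ins-7*, 2.40 for *ins-11*, 1.09 for *ins-25*, -0.80 for *ins-28*, -2.11 for *ins-26*, -2.26 for *daf-28*, -3.48 for *ins-5* and -3.74 for *ins-12*.

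The values of *ins-7*, *ins-9*, *ins-12*, *ins-16* and *ins-20* rest on groups with few counts, so their size depends on the prior count of the fit and is no bound. Of the 29, 17 held without any single library (8 for starvation, 6 for 3 h and 3 for 15 h). At 3 h, *ins-10* was lost without starved replicate 2 labelled *hlh-30(lf)* (1.23), *ins-25* without *hlh-30(lf)* replicate 1 of that time (1.28), and *ins-14* without starved wild-type replicate 1 (0.67) or starved replicate 2 labelled *hlh-30(lf)* (0.70). *ins-21* (-1.45 to -1.75) and *ins-20* (2.65 to 3.40) were each lost without any of 5 libraries. At 15 h, *ins-12* was lost without wild-type replicate 2 of that time (-2.58).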

How the results depend on the processing

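Among the members, 196 pairs of gene and comparison were called, and no alternative reversed the direction of any of them. The calls held for 193 pairs under edgeR's earlier fit, 194 under RLE size factors, 194 (all that were tested) with filterByExpr, 181 under limma-voom, 176 under DESeq2 and 175 with the compared groups alone, which leaves fewer samples to estimate the spread. Leaving out 1 library kept 173 to 192 pairs.

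The counts of members called that moved by over 1.5 times were these. *hlh-30(lf)* against wild type in the fed state had 4, and 10 with edgeR's earlier fit. The interaction with starvation had 10, and 16 with the earlier fit. *hlh-30(lf)* against wild type at 15 h of CeMM had 18, and 11 with the compared groups alone. The cause was not tested for the earlier fit. Without 1 library the counts ranged from 6 to 11 for CeMM 3 h against starved in *hlh-30(lf)* (10 with all), from 2 to 5 for the fed genotype comparison and from 4 to 12 for the interaction at 15 h (8 with all).

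The study's methods tie each replicate to a time of its own, but neither they nor the labels say that a number marks the same time in every group. Over 28 pairs of groups, samples with 1 number shared deviations with a mean correlation of 0.0083 (-0.306 to 0.451). Summed yolk protein genes were higher in replicate 1 than 2 of starved (64 and 3.16 CPM), 3 h (63.8 and 3.68 CPM) and 15 h (10.1 and 1.80 CPM) wild-type worms. The correlation for starved and 3 h wild-type worms was -0.305. Whether libraries with 1 number share an origin was not tested further. With a replicate block, 193 of the 196 calls held, and the lost ones were *ins-9*, *ins-17* and *ins-35* in wild type at 15 h of CeMM against starved. Depth limited the 13 trace members, for which 3 counts correspond to 0.0730 to 0.105 CPM.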
